A study of Homo sapiens with 20 samples.

Results

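The siRNA-mediated depletion of ERRα was examined in LRSKBr3 cells, a lapatinib-resistant derivative of the SKBr3 breast cancer line. The comparison set 2 arrays of cells given siERRα against 2 arrays of cells given the control siRNA (siC), and its members were the 8878 genes, of 9592 measured in the series, that were detected at a detection p-value under 0.01 on both arrays of either resistant group. SKBr3 is a human line with amplified ERBB2 (HER2), and lapatinib is an inhibitor of the EGFR and HER2 kinases. The resistant cells were obtained by long exposure to rising doses of the drug, and the labels gave the maintenance dose as 2 µM in the protocols and as 1 µM in the group name, so both resistant groups carried the drug whichever value holds. Both groups were transfected for 60 h with siRNA pools, in medium with serum. Parental cells (pSKBr3), labelled as given DMSO, received the same 2 siRNAs on 2 arrays each and served as the reference. The 2 lines thus also differed in the drug, so line and drug cannot be told apart in any comparison between them. The series also held cells starved of serum and given vehicle, EGF or heregulin (HRG), each with siC or siERRα. A single pair of lines was studied, and what separated the 2 replicates of a group was not stated in the sources used here, and every p-value below therefore reflects the variation among these arrays alone, some or all of which can be technical.

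ERRα, encoded by ESRRA, is an orphan nuclear receptor that binds DNA at a sequence known as the ERR response element. With its coactivators of the PGC-1 family it is known to switch on genes of the respiratory chain, the ATP synthase, the tricarboxylic acid (TCA) cycle and mitochondrial biogenesis. In HER2-driven breast tumours it has been linked to growth and to fuel choice. The arrays were read here for which of these genes, and which others, were lower or higher when the receptor was depleted in cells that grow in lapatinib.

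The 4 arrays of resistant cells were of similar quality, with 13868 to 15026 probes detected each. Replicate 1 of the EGF-treated siERRα group stood apart, with a correlation of at most 0.875 with any other array, whereas the other 19 arrays, the 4 resistant ones included, correlated at 0.933 or more. It was left out of the fit, and the values over 20 arrays are given beside each count of calls. Luminal breast markers were present, with 17 of 20 detected on all 4 resistant arrays, among them ERBB2, GRB7, KRT8, KRT19 and EPCAM, whereas CDH1 and TFAP2B were detected on no resistant array. Of markers of other cells, 0 of 6 basal, 1 of 14 mesenchymal (VIM), 2 of 11 leukocyte (CD68 and CSF1R) and 2 of 8 endothelial genes (VWF and CDH5) were detected on all 4 arrays. Defining markers such as PTPRC, CD3E, PECAM1, COL1A1 and KRT5 were detected on none. The summed normalized intensity of the leukocyte list was 1988 to 2002 with siC and 2194 to 2445 with siERRα, that of the basal list 256 to 257 and 190 to 223, and that of the luminal list 78043 to 80016 and 72701 to 90534. The part of these shifts in the results was not tested.

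The transcript of the depleted receptor itself was the most reduced of all genes. On the log2 scale of normalized intensity, ESRRA read 8.90 and 9.18 on the siC arrays and 6.42 and 6.45 on the siERRα arrays. The groups stood well apart, with means of 9.04 ± 0.20 and 6.44 ± 0.02 (SD, n = 2), and the probe was still detected on both siERRα arrays. In limma the log2 fold change was -2.60 (SE 0.24), or 6.08-fold lower, with an adjusted p of 0.000772 over 19 arrays and 0.00797 over 20. In RNA from a whole culture, fewer cells with the transcript and less transcript per cell cannot be told apart. In pSKBr3 cells ESRRA read 9.15 and 9.18 with siC and 7.64 and 8.05 with siERRα, a log2 fold change of -1.32, and it had -1.13 in starved and -0.99 in HRG-treated cells. The 2 resistant siERRα arrays thus lay below both parental siERRα arrays, while the siC levels of the 2 lines differed by -0.12 (resistant minus parental). The difference of the response between resistant and parental cells was -1.28 (SE 0.34), with a limma p of 0.00241 before and 0.999 after adjustment over all genes.

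Beyond the target, 4 genes met the threshold of an adjusted p under 0.05. In all, 4 genes including ESRRA were called lower, or 0.0451% of the 8878 members, and 1 gene was called higher, or 0.0113%. With all 20 arrays 1 gene was called in either direction, again 0.0113%, and it was ESRRA. The same single gene was called when any 1 of the 4 resistant arrays was left out, so that the calls of the other 4 genes rested on all 4 arrays. An unadjusted p under 0.05 is passed on average by a share of 0.05 of unchanged genes, with both directions counted. In the fit of 19 arrays 633 of the 8878 members passed it, 372 of them lower (4.19% of the members) and 261 higher (2.94%). The share of 0.05 is therefore to be set beside the 633 and not beside either direction alone. Over 20 arrays 276 of the 8878 passed in either direction. The median log2 fold change of all members was -0.004, and 25 genes had a log2 fold change of at least 1 in size, 16 lower and 9 higher.

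TMEM64, which encodes a membrane protein, read 7.51 and 7.19 with siC and 6.04 and 6.04 with siERRα. Both siERRα arrays lay below both siC arrays, and the gene fell by 1.31 on the log2 scale (SE 0.20, limma adjusted p = 0.031). Its second probe, which was not detected on both arrays of either resistant group, gave -0.97. SIVA1, an adaptor with a proapoptotic role, was the brightest of the called genes and read 11.54 and 11.59 with siC and 10.33 and 10.57 with siERRα. It fell by 1.11 (SE 0.16, adjusted p = 0.0307), and its 3 other probes gave -0.92, -1.20 and -0.95, so that every detected probe of the gene was lower. COPRS, a histone-binding partner of the arginine methyltransferase PRMT5, read 9.67 and 9.70 with siC and 8.57 and 8.78 with siERRα, and fell by 1.01 (SE 0.14, adjusted p = 0.0307). RTN4R, the receptor for the myelin protein Nogo in neurons, was the one gene called higher. It read 6.24 and 6.24 with siC and 7.29 and 7.07 with siERRα, a rise of 0.94 (SE 0.14, adjusted p = 0.0307). In the authors' normalized table the log2 fold changes were smaller for ESRRA (-1.31), TMEM64 (-0.42) and RTN4R (0.31). Over 20 arrays the adjusted p-values of TMEM64, SIVA1, COPRS and RTN4R were 0.0794, 0.0743, 0.0743 and 0.0872.

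**Figure D1:**
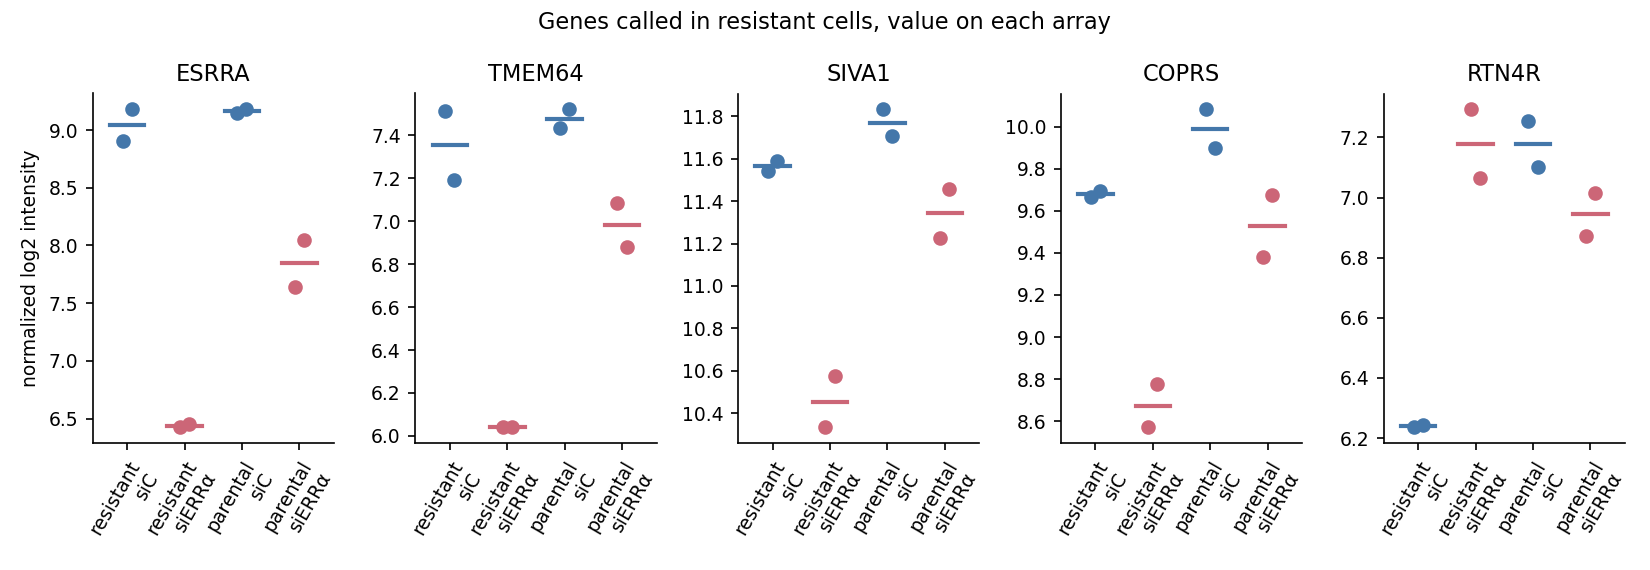
Normalized log2 intensity (vertical axis, a separate scale for each gene, not starting at 0) of the 5 called genes on each array of resistant and parental cells given siC (blue) or siERRα (red); each point is 1 array and each bar the mean of 2. ESRRA, TMEM64, SIVA1 and COPRS are lower with siERRα in both lines and lowest in resistant siERRα cells, and RTN4R stands at 6.24 on both resistant siC arrays and between 6.87 and 7.29 on the other 6.

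The 3 other genes called lower also had negative values in pSKBr3 cells, of smaller size. ESRRA itself fell less there, with -1.32 beside -2.60 in resistant cells, and the part of this in the sizes was not tested. SIVA1 had a log2 fold change of -0.43 in pSKBr3 cells, COPRS -0.46 and TMEM64 -0.49. Their limma adjusted p-values in pSKBr3 cells were 0.935, 0.930 and 0.935. Averaged over parental, starved and HRG-treated cells, which share no arrays with the resistant groups, SIVA1 had -0.33 (limma adjusted p = 0.586), TMEM64 -0.36 (adjusted p = 0.634) and COPRS -0.25 (adjusted p = 0.639). COPRS had 0.02 in starved cells and -0.31 in HRG-treated cells, whereas SIVA1 and TMEM64 were negative in each of the 3 settings. ESRRA was the only gene called in that average (-1.15, SE 0.14, adjusted p = 0.0168), and over 20 arrays 0 genes were called and 277 passed an unadjusted p under 0.05. RTN4R, in contrast, had -0.02 in the average and -0.23 in pSKBr3 cells.

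The next genes in order of p did not pass the threshold, and the nearest to it, DSCC1 and RPUSD2, had an adjusted p of 0.0964. Both passed it under some alternatives of the processing, given at the end. DSCC1 belongs to the clamp loader that helps establish cohesion between sister chromatids, and read 10.88 and 11.10 with siC and 10.09 and 9.94 with siERRα (log2 fold change -0.97, SE 0.17). RPUSD2, a pseudouridine synthase family member, read 9.60 and 9.65 against 8.88 and 8.66 (-0.85, SE 0.15). RDX, or radixin, which ties actin filaments to the membrane, read 9.24 and 9.16 against 8.11 and 8.17 (-1.06, SE 0.20, adjusted p = 0.127). For these 3 genes the siERRα arrays lay below the siC arrays with no overlap. NAA15, a subunit of the N-terminal acetyltransferase NatA, had -0.82 and GSTA3, a glutathione transferase of the alpha class, -0.74, with adjusted p-values of 0.161 and 0.169. GSTA3 was detected on 1 of the 2 siERRα arrays, and its family holds near-identical copies that the probe was not checked against.

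On the upper side, HIC2, a zinc-finger repressor of transcription, read 7.21 and 7.30 with siC and 8.27 and 7.94 with siERRα (log2 fold change 0.85, SE 0.18, adjusted p = 0.213). LPCAT1, an acyltransferase that makes phosphatidylcholine, had 0.57 (SE 0.13) and ESPN, the actin-bundling protein espin, 0.68 (SE 0.17), with adjusted p-values of 0.281 and 0.303. CYSRT1, VTN and CRIP3 were below detection on both siC arrays and are given as lower bounds further on. The probe of ANKRD20A1 was not detected on either siC array, reading 5.19 and 4.76 there and 5.77 and 5.93 with siERRα, and as the gene is one of several near-identical copies its value is uncertain. The largest positive value of all, 1.86 (SE 0.56, adjusted p = 0.459), belonged to TELO2, a scaffold for kinases of the mTOR and ATM family, which is named because of that value. It read 7.70 and 7.04 with siC and 8.91 and 9.55 with siERRα, so that the 2 replicates of each group lay far apart though the groups did not overlap.

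**Figure D2:**
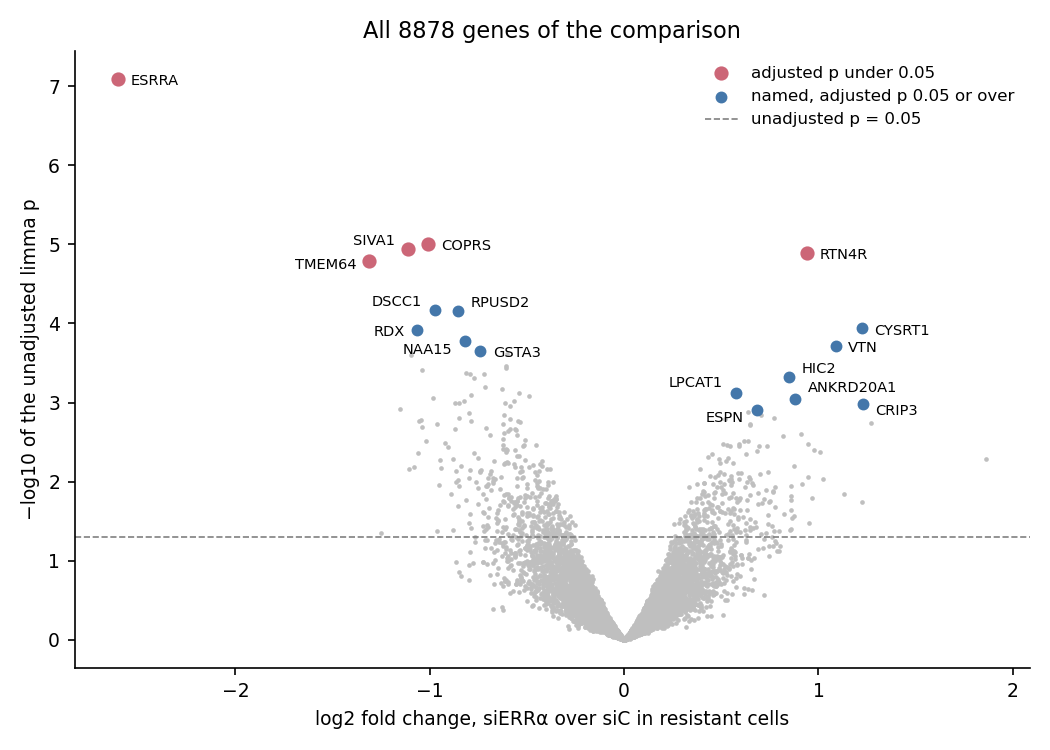
Log2 fold change of siERRα over siC in resistant cells (horizontal axis) against -log10 of the unadjusted limma p (vertical axis) for each of the 8878 genes; red points are called, blue points are named without a call, and the dashed line marks an unadjusted p of 0.05. CYSRT1, VTN, CRIP3 and ANKRD20A1 were not detected with siC, so their positions are not exact. ESRRA stands alone at -2.60, 4 further genes are called, and 372 genes to the left and 261 to the right lie above the line.

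Genes of the respiratory chain and the TCA cycle were shifted toward lower values, by small amounts and with 0 of them called. Among all members 50.6% had a negative log2 fold change, both siERRα arrays lay below both siC arrays for 1735 genes (19.5%), and they lay above for 1559 (17.6%). Of the 22 measured subunits of respiratory complexes II to IV with cytochrome c, 21 had negative values and 14 (63.6%) had both siERRα arrays below both siC arrays, with 0 above. The median log2 fold change of the list was -0.25, with a range from -0.63 to 0.07, and 6 genes (27.3%) were lower at an unadjusted p under 0.05, beside 4.19% of all genes. The study had already tied mitochondrial metabolism to ERRα depletion on the SKBr3 arrays of this series, so these lists are no independent evidence of direction. COX7B, a subunit of cytochrome c oxidase, read 12.30 and 12.09 with siC and 11.56 and 11.57 with siERRα (log2 fold change -0.63, SE 0.14, adjusted p = 0.266). SDHD, a membrane anchor of succinate dehydrogenase, read 10.32 and 10.15 against 9.82 and 9.79 (-0.44, SE 0.14, adjusted p = 0.522). CYCS, or cytochrome c, read 6.95 and 7.15 against 6.64 and 6.34 (-0.56, SE 0.21, adjusted p = 0.584). COX6C, COX8A and COX4I1, all subunits of the same oxidase, completed the 6, with -0.36, -0.35 and -0.28.

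Of the 28 measured genes of the TCA cycle and pyruvate entry, 24 had negative values, 16 (57.1%) had the siERRα arrays below the siC arrays and 1 had them above, the median was -0.17, and 7 were lower at an unadjusted p under 0.05. SDHA, SDHC and SDHD are members of the complexes II to IV list as well, and SDHD is counted at that p in both lists. MPC1, which carries pyruvate into the mitochondrion, read 12.14 and 12.21 with siC and 11.59 and 11.63 with siERRα (-0.57, SE 0.13, adjusted p = 0.281), and its second probe gave -0.45. DLAT, the acetyltransferase core of the pyruvate dehydrogenase complex, read 9.50 and 9.23 against 8.71 and 8.77 (-0.62, SE 0.16, adjusted p = 0.324). MDH1, the cytosolic malate dehydrogenase, read 12.72 and 12.73 against 12.22 and 12.36 (-0.44, SE 0.14, adjusted p = 0.49). In each of these genes the replicates of a group lay closer to each other than to any array of the other group. The highest value of the list was that of PC, or pyruvate carboxylase, at 0.25, with arrays that overlapped. MDH2, the mitochondrial malate dehydrogenase, had 0.09, also with arrays that overlapped.

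Subunits of the ATP synthase and complex I also had mostly negative values. For ATP synthase, 13 of 16 genes were negative, 10 (62.5%) had the siERRα arrays below the siC arrays with 0 above, and the median was -0.17. ATP5PO, a stalk subunit, had -0.34 (SE 0.13), ATP5F1A, the catalytic-ring subunit alpha, -0.30 and ATP5PD -0.32, with adjusted p-values of 0.635, 0.736 and 0.772, and the second probes of ATP5F1A and ATP5PD, gave -0.50 and -0.20. For complex I, 27 of 33 genes were negative, 14 (42.4%) had the siERRα arrays below and 1 above, and the median was -0.10. NDUFB5 had -0.34 (SE 0.13), NDUFA9 -0.31 and NDUFA8 -0.28. Mitochondrial biogenesis and dynamics had a median of -0.13 over 16 genes, 8 of them with the siERRα arrays below and 0 above. OPA1, which fuses inner membranes, had -0.43 (SE 0.17, adjusted p = 0.614), whereas TFAM, the packaging factor of mitochondrial DNA, had -0.12.

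Genes long known as ERRα targets, several of which also sit in the lists above, had a median of -0.21 over the 12 measured. Both siERRα arrays were below both siC arrays for 8 of them (66.7%) and above for 2 (16.7%), and 3 were lower at an unadjusted p under 0.05. These were SDHD and CYCS, given above, and IDH3A, a catalytic subunit of the mitochondrial isocitrate dehydrogenase, which read 8.76 and 8.98 with siC and 8.60 and 8.38 with siERRα (-0.38, SE 0.14). VEGFA and CPT1B had positive values of 0.49 and 0.27. Of the 7 coactivators and corepressors measured with the receptor, HDAC3, a histone deacetylase of corepressor complexes, had the most negative value. It read 9.17 and 9.54 with siC and 8.66 and 9.01 with siERRα (-0.52, SE 0.17, adjusted p = 0.515), and had 0.01 in parental cells. PPARGC1B, which encodes PGC-1β, had -0.13, NRIP1 -0.10, MED1 -0.08, SIRT1 0.03, NCOA1 0.09 and PPRC1 0.11, and of the 7 only HDAC3 and PPARGC1B had arrays that did not overlap.

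The medians of the other mitochondrial lists were closer to that of all genes, at -0.04 for the 74 mitochondrial ribosome proteins, -0.02 for 19 genes of fatty acid oxidation and -0.01 for 20 of branched-chain amino acid breakdown. Both siERRα arrays lay below both siC arrays for 27% of the first list, 31.6% of the second and 30% of the third, beside 19.5% of all genes. MRPS30 had -0.39 (SE 0.15), MRPL9 -0.45 and MRPS9 -0.32, whereas MRPL30 had 0.40 (SE 0.18), and these were the 4 ribosome genes at an unadjusted p under 0.05. ACADM, the medium-chain acyl-CoA dehydrogenase and a known ERRα target, had -0.29 (SE 0.18), and ECHS1, the next enzyme of the pathway, 0.30 (SE 0.17).

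**Figure D3:**
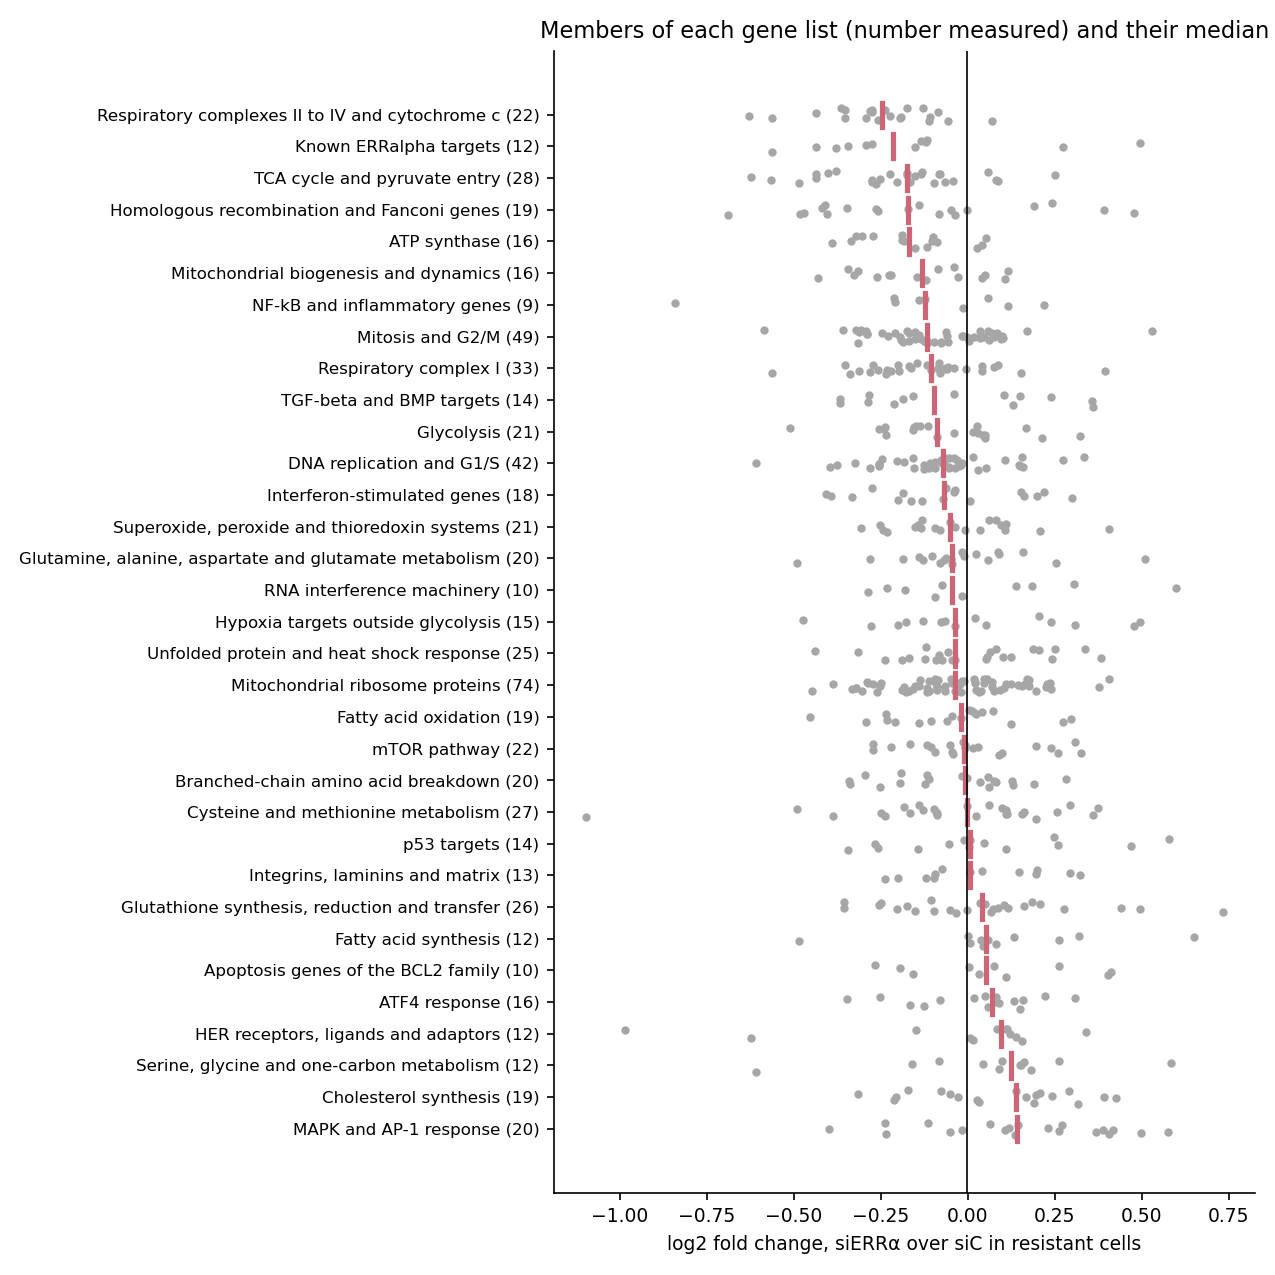
Log2 fold change of siERRα over siC in resistant cells (horizontal axis) for the measured members of 33 gene lists; each grey point is a gene, each red bar the median of the list, the number of genes is in brackets, and the vertical line is the median of all 8878 genes. The lowest median is that of complexes II to IV at -0.25 and the highest that of MAPK and AP-1 response genes at 0.14, and the members of every list spread over more than the distance between these medians.

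The promoters of these genes were searched for the ERR response element, since the comparison did not use sequence. Windows of 250 bases before to 50 bases after the annotated start were taken from RefSeq (GRCh38.p14) for 7313 of the 8878 genes. The full element was written as TNAAGGTCA and its core as AAGGTCA, which the full element contains, and both strands were read. The full element was in 263 of all 27305 windows of the table (0.963%) and in 30 of the 7313 (0.41%), and the core was in 1083 (3.97%) and 179 (2.45%). Of the called genes, 3 lower and 1 higher had a window, and 0 of these 4 held the core. Among genes at an unadjusted p under 0.05, the core was in 14 of 322 lower (4.35%) and 8 of 199 higher (4.02%), so it was about as common on either side. The full element was in 1 of the 322 (0.311%) and 1 of the 199 (0.503%). Over the 7313 genes the median log2 fold change was -0.026 with the core and -0.007 without it.

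In the 4 lists of oxidative phosphorylation and the TCA cycle, the full element was found in SDHD, and the core alone in COX8A of complex IV, NDUFS7 of complex I, ATP5MG of the ATP synthase and SUCLA2, a subunit of succinyl-CoA synthetase. Their log2 fold changes were -0.44, -0.35, -0.22, -0.19 and -0.13. Of the 96 genes of these lists, with or without a site, 82 were negative. The windows searched were 18 for complexes II to IV, 29 for complex I, 12 for the ATP synthase and 26 for the TCA cycle. The 5 sites are shown with those of RPUSD2 and GSTA3, named for negative values, and of VTN and MAGEA9B, named for positive ones. MAGEA9B holds the full element and the other 3 the core alone. The sites are printed 5′ to 3′ on the strand that reads the element, with the element in capitals. They are matches found among the genes named here. The listing of sites did not cover every named gene, DSCC1 and AP3M2 among those left out, so it may not be complete.
SDHD: tcctgagggcTCAAGGTCAtccaccaacc
COX8A: gccgtagcccAAGGTCAggaagccaaa
NDUFS7: ccgaggcggaAAGGTCAtcggagtgcg
ATP5MG: tcccacttccAAGGTCAggccgcctct
SUCLA2: cccagttccaAAGGTCAaagcttgctc
RPUSD2: acgtctgagtAAGGTCActtttggtga
GSTA3: gctgcctcagAAGGTCActggggacca
VTN: tgctgcagcaAAGGTCAcattcctgga
MAGEA9B: gacccaggcaTCAAGGTCAggaccccctg

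The SDHD window lies at chr11:112086874-112086902, on the minus strand, and its element begins at position 12 of the transcript, counting the annotated start as 1, of a gene on the plus strand. In the order shown, the others lie at chr11:63974622-63974648 (minus), chr19:1383726-1383752 (minus), chr11:118401561-118401587 (minus), chr13:48001440-48001466 (minus), chr15:40569135-40569161 (plus), chr6:52909876-52909902 (plus), chr17:28370389-28370415 (plus) and chrX:149587578-149587606 (minus). The COX8A element begins at position 13, and those of the other 7 genes lie upstream of the start. A match describes the letters only, not whether the receptor was bound there.

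Values for genes of amino acid metabolism lay on both sides of 0. The study had named glutamate, cysteine and methionine metabolism and the oxidative stress response from these same resistant arrays, so the lists for them are no independent evidence of direction either. CTH, cystathionine γ-lyase, which releases cysteine from cystathionine, read 6.49 and 6.64 with siC and 5.44 and 5.49 with siERRα, where it was not above detection. It was at least 1.90-fold lower (measured log2 fold change -1.10, SE 0.22, adjusted p = 0.169), and in pSKBr3 cells, where 1 of the 2 siC arrays was below detection, its log2 fold change was -0.03. GOT1, the cytosolic aspartate aminotransferase, read 10.42 and 10.44 against 9.99 and 9.88 (-0.49, SE 0.11, adjusted p = 0.281). In the authors' normalized table GOT1 was called. SRM, or spermidine synthase, read 9.71 and 9.98 against 10.14 and 10.31 (0.37, SE 0.14). The cysteine and methionine list as a whole had a median of -0.002 over 27 genes, with 14 negative, and the glutamine, alanine, aspartate and glutamate list -0.05 over 20. In the latter, PPAT, which uses glutamine for the first step of purine synthesis, read 9.52 and 9.51 against 10.11 and 9.93 (0.51, SE 0.18, adjusted p = 0.548). Enzymes of serine, glycine and one-carbon metabolism had a median of 0.12 over 12, with PSPH, the last enzyme of serine synthesis, at 0.58 (SE 0.19) and 0.12 from its second probe, and TYMS, thymidylate synthase, at -0.61 (SE 0.18).

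Genes of glutathione synthesis and use had a median of 0.04 over 26, with 12 negative. GPX2, a glutathione peroxidase, read 5.81 and 6.18 with siC and 6.61 and 6.85 with siERRα (0.73, SE 0.21, adjusted p = 0.395), and GSTM2 had 0.50 (SE 0.19). GSTK1, the mitochondrial and peroxisomal transferase, read 11.53 and 11.64 against 11.20 and 11.26 (-0.36, SE 0.13). Enzymes against superoxide and peroxide had a median of -0.05 over 21, in which HMOX1, heme oxygenase, had 0.41 and PRDX6, a peroxiredoxin, -0.25. In glycolysis the median was -0.09 over 21, and PGAM1, phosphoglycerate mutase, read 10.23 and 10.38 against 9.76 and 9.83 (-0.51, SE 0.15, adjusted p = 0.463), with -0.63 from its second probe. Cholesterol synthesis had a median of 0.14 over 19 genes, 6 of them (31.6%) with the siERRα arrays above the siC arrays and 1 below, and DHCR7, its last step, had 0.32 (SE 0.14), with 0.09 from its second probe. In fatty acid synthesis, ACLY, which makes cytosolic acetyl-CoA from citrate, had -0.49 (SE 0.17), and -0.34 from its second probe, beside a list median of 0.05. Only 2 of the 12 measured genes of that list were negative, and THRSP had 0.65 (SE 0.27) and ELOVL1 0.32 (SE 0.15).

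Cell cycle and DNA repair genes lay slightly below the level of all genes. Mitosis and G2/M genes had a median of -0.12 over 49, with 16 (32.7%) having the siERRα arrays below the siC arrays and 2 above, and DNA replication and G1/S genes -0.07 over 42. CDCA8, or borealin of the chromosomal passenger complex, read 8.88 and 8.91 with siC and 8.32 and 8.30 with siERRα (-0.58, SE 0.14, adjusted p = 0.287), TOP2A, topoisomerase II alpha, had -0.31 and POLA1, the catalytic subunit of DNA polymerase alpha, -0.38. Homologous recombination and Fanconi genes had a median of -0.17 over 19, with 4 (21.1%) below and 3 above, close to the shares of all genes. MRE11, a nuclease that processes double-strand breaks, had -0.69 (SE 0.22) from its main probe and -0.10 from its other one, so the probes disagreed.

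In the HER signalling list, 3 of 12 measured genes were negative and the median was 0.10. The receptors themselves had log2 fold changes of 0.11 for ERBB2, 0.08 for ERBB3 and -0.15 for EGFR. GAB1, a docking adaptor downstream of receptor kinases, read 6.13 and 6.12 with siC and 5.13 and 5.15 with siERRα, where it was not above detection, and was at least 1.40-fold lower (measured -0.98, SE 0.23, adjusted p = 0.281). PIK3CB, the catalytic p110β subunit of PI3-kinase, read 6.62 and 6.35 against 5.74 and 5.99 (-0.62, SE 0.17, adjusted p = 0.395). MAPK and AP-1 response genes had a median of 0.14 over 20, with 5 (25.0%) having the siERRα arrays above and 3 below, and IER3, an early response gene, had 0.50 (SE 0.24). The mTOR pathway genes had a median of -0.01 over 22, with RRAGD, a Rag GTPase that signals amino acids to mTORC1, at 0.32 (SE 0.18) and RRAGC at -0.22 (SE 0.13).

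The lists of interferon, inflammatory and RNA interference genes gave few values apart from the rest. Both groups were transfected with siRNA, so a response shared by both cannot be seen in this comparison. Of 40 interferon-stimulated genes, which double-stranded RNA can switch on, 18 were measured. Of these 18, 0 passed an unadjusted p under 0.05, 0 were called and the median was -0.07. The 9 NF-κB and inflammatory genes had a median of -0.12, where the chemokine gene CCL2 read 8.16 and 8.22 with siC and 6.88 and 7.82 with siERRα (-0.84, SE 0.56). Of the RNA interference machinery, AGO2, the slicer, had 0.60 (SE 0.22, adjusted p = 0.574) beside a list median of -0.05 over 10. The remaining lists had medians of 0.07 (ATF4 response), -0.04 (unfolded protein and heat shock response), 0.01 (p53 targets), -0.04 (hypoxia targets), -0.10 (TGF-β and BMP targets), 0.01 (integrins, laminins and matrix) and 0.05 (BCL2 family), with 0 genes called.

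Some genes crossed the detection limit. With every probe of the gene counted, 76 genes were below detection on both siERRα arrays and detected on both siC arrays, and 46 genes were below detection on both siC arrays and detected on both siERRα arrays. ANKRD20A1 is not among the 46, since another of its probes was detected on a siC array. After CTH, the largest lower bounds of a decrease were those of SLAIN1, a microtubule-associated protein, at 1.68-fold, TIGD7 at 1.67-fold, ADGRL2, an adhesion receptor, at 1.498-fold and the small RNA gene SCARNA13 at 1.47-fold. On the other side, CYSRT1 read 5.43 and 5.22 with siC and 6.77 and 6.33 with siERRα, at least 1.88-fold higher (adjusted p = 0.127). VTN, or vitronectin, an adhesive plasma and matrix protein, read 5.397 and 4.96 against 6.11 and 6.42, at least 1.54-fold higher (adjusted p = 0.169). MAGEA9B followed with a bound of 1.502-fold, TEC, a non-receptor kinase, with 1.48-fold and GALC, a lysosomal galactosylceramidase, with 1.45-fold. Their limma adjusted p-values were 0.713, 0.515 and 0.785. CRIP3 had a bound of 1.12-fold beside its measured log2 fold change of 1.23 (adjusted p = 0.281). A bound sets the mean of the bright group against the higher of the gene's own signal and the lowest signal of a detected probe on each array. It carries no error estimate, and none of the genes given a bound here was called.

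The same siRNAs in pSKBr3 cells gave 0 called genes of 9592, with 485 at an unadjusted p under 0.05 over 19 arrays and 218 over 20. ESRRA had -2.60 in LRSKBr3 and -1.32 in pSKBr3 cells, and the part of this in the sizes below was not tested. The respiratory lists were shifted in pSKBr3 cells as well. The median log2 fold change was -0.24 in pSKBr3 beside -0.25 in LRSKBr3 cells for complexes II to IV, -0.13 beside -0.17 for the ATP synthase, -0.12 beside -0.10 for complex I and -0.13 beside -0.17 for the TCA cycle. Of the 96 genes in these 4 lists, 82 were negative in LRSKBr3 and 82 in pSKBr3 cells, and 71 were negative in both. The largest falls in the resistant line were not always shared, since COX7B had -0.63 and -0.14, and MPC1 -0.57 and -0.003, in resistant and parental cells, whereas SDHD had -0.44 and -0.41 and DLAT -0.62 and -0.48. Across all 8878 genes the sign was the same in both lines for 58.2%, and for the 633 genes at an unadjusted p under 0.05 in the resistant line it was the same for 72.2%. The correlation of the log2 fold changes across genes, which are not independent replicates, was 0.22 with parental, 0.15 with starved and 0.16 with HRG-treated cells, and none of these comparisons shares an array with that in resistant cells.

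**Figure D4:**
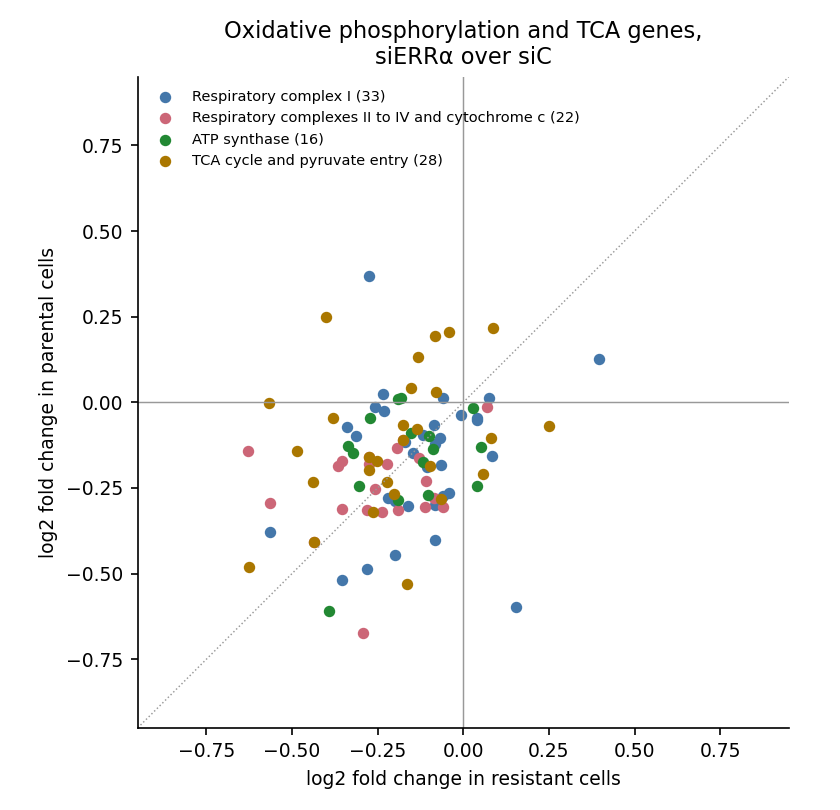
Log2 fold change of siERRα over siC in resistant (horizontal axis) and parental cells (vertical axis) for each measured gene of 4 lists, with the dotted line marking equal values; a gene in 2 lists is drawn under both. Most points lie at the lower left, where 71 of the 96 genes are negative in both lines.

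The difference of the siERRα response between the lines was tested for all genes, and 0 genes were called, with 372 at an unadjusted p under 0.05 over 19 arrays and 146 over 20. The fall of ESRRA was itself smaller in pSKBr3 cells, and the part of this in the differences was not tested. RTN4R had the smallest p, with a difference of 1.18 (SE 0.20, limma adjusted p = 0.426). In pSKBr3 cells it read 7.25 and 7.10 with siC and 6.87 and 7.02 with siERRα, so the resistant siC arrays at 6.24 were the ones that stood apart. CYSRT1 came next by p (adjusted p = 0.645), but it was below detection on both resistant siC arrays and on 1 parental siERRα array, so the size of the difference is not given. Its parental siC arrays read 6.34 and 6.12 and its siERRα arrays 5.43 and 6.08. MAP3K3, a kinase upstream of MAPK cascades, read 6.47 and 6.61 with siC and 7.17 and 7.28 with siERRα in resistant cells, and 7.21 and 7.22 against 6.51 and 6.61 in parental cells, but its second probe gave -0.16 in resistant cells. CASTOR1, a cytosolic arginine sensor of the mTORC1 pathway, had 0.70 in resistant and -0.33 in parental cells, and LOC730101 was below detection on both resistant siC and both parental siERRα arrays, being at least 1.11-fold higher with siERRα in resistant cells.

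In the other direction, GSTA3 had the smallest p (adjusted p = 0.999), but it was below detection on all 4 parental arrays and on 1 resistant siERRα array, so no size is given for its difference. HEATR3, a factor for import of a ribosomal protein, read 7.88 and 7.70 against 7.60 and 7.34 in resistant cells and 6.84 and 7.13 against 8.0 and 7.82 in parental cells (difference -1.24, SE 0.285). PIK3CB had -0.62 and 0.34, AP3M2, a subunit of the AP-3 sorting adaptor, -0.71 and 0.15, and NFATC2IP -0.47 and 0.30. The 5 other probes of NFATC2IP, 1 of them below detection in resistant cells, gave 0.02 to 0.81 there, against the sign of the main one. The adjusted p of the difference was 0.999 for all of these except RTN4R and CYSRT1, so that no single gene is shown to respond differently in the 2 lines.

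**Figure D5:**
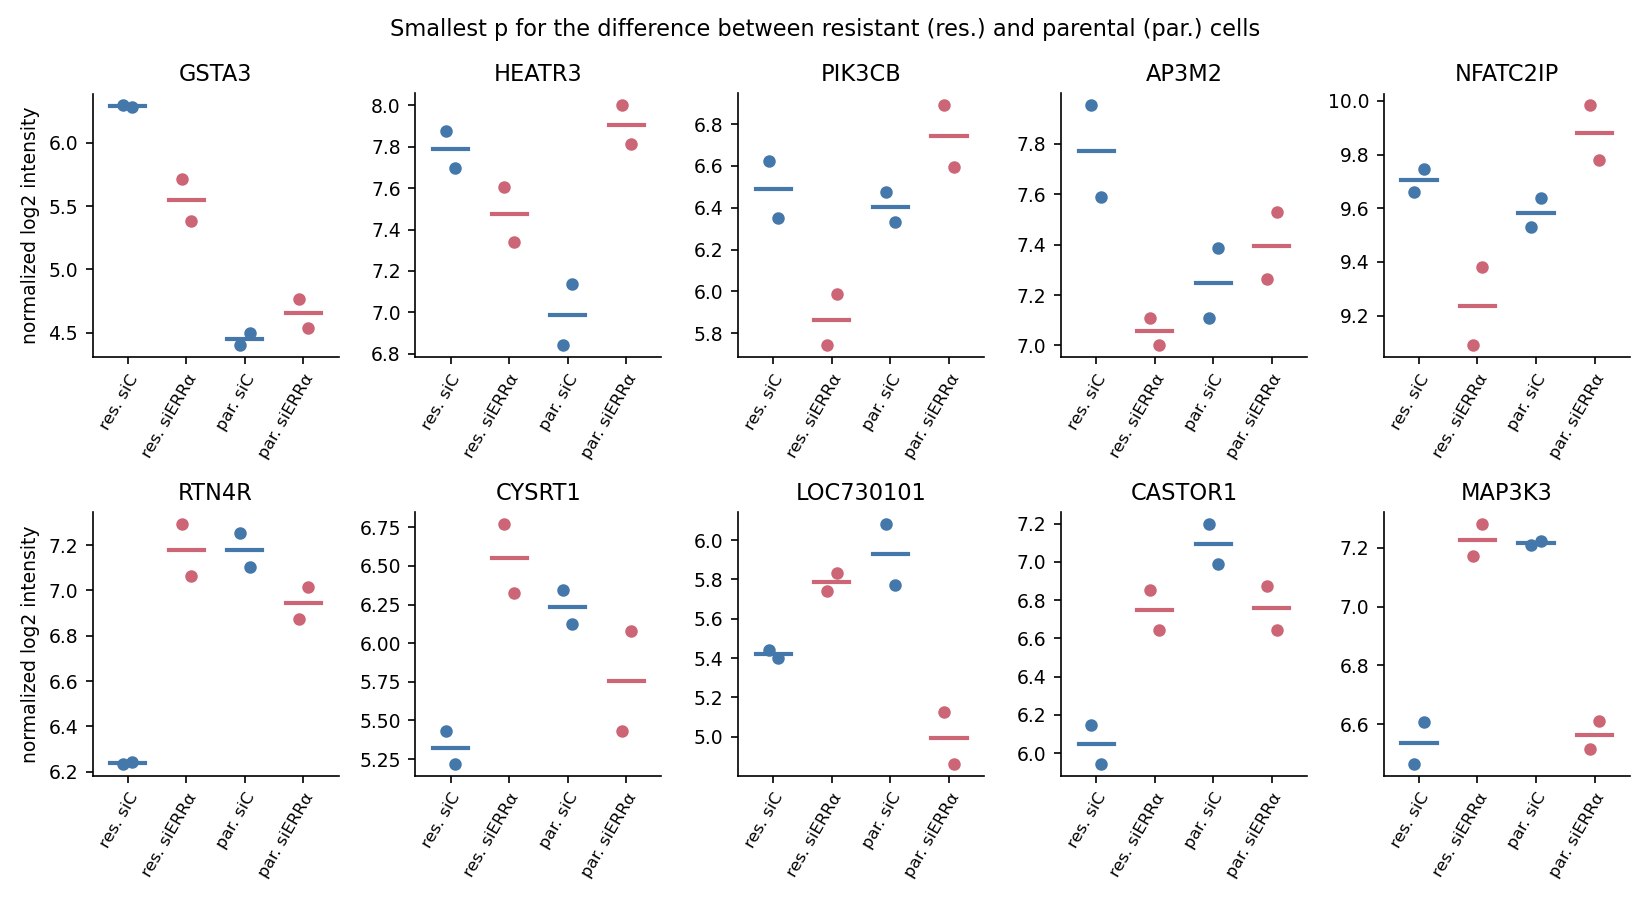
Normalized log2 intensity (vertical axis, a separate scale for each gene, not starting at 0) on each array of resistant and parental cells given siC (blue) or siERRα (red), for the 5 genes with the smallest limma p for a more negative (upper row) and a more positive (lower row) response in resistant cells; bars are means of 2 arrays. CYSRT1, LOC730101 and GSTA3 were below detection on some of these arrays. In resistant cells the siERRα points are below the siC points in the upper row and above them in the lower row, and 0 of these genes passed an adjusted p under 0.05 for the difference.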

How the data were processed

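Total RNA was hybridised to 20 Illumina HT-12 v4 bead arrays (10 groups of 2). The authors deposited a table of probe intensities, not normalized, with a detection p-value for each probe and array, and a table of normalized values, made with lumi in FlexArray per the methods, which was read as log2 although its transform is not stated. The main values here were computed from the deposited intensities: normexp background correction from the detection p-values (offset 16), quantile normalization over 19 arrays and log2. Of 47323 probes, 30113 had 1 gene symbol in the platform annotation. A gene was represented by its brightest detected probe. Group means were fitted in limma 3.58.1 (R 4.3.3) with eBayes, and p-values were Benjamini-Hochberg adjusted over 9592 genes, with an adjusted p under 0.05 called. All adjusted p-values are from limma, since an exact permutation test of 2 against 2 arrays cannot go below 0.333. Gene lists were described by counts and medians, without a test. The gene lists and the comparison were chosen with earlier results of these data known. The genes named were ESRRA, the called genes, the uncalled genes of smallest p to fill up to 8 in a direction, the called members or otherwise up to 3 members of smallest p in each list, 5 in each direction for the difference between lines and 5 for the detection bounds. TELO2, MT1E and other list members given beside these were chosen after their values were seen. The fit was tested on simulated data. Alternatives covered the arrays fitted, background, scaling, filter, probe choice, the deposited normalized table and each array left out.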

Additional observations from a re-analysis of the deposited data

Results flagged for a closer look

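Of 3030 detected probes that carry no single gene symbol, and that the gene counts therefore leave out, 2 met an adjusted p under 0.05 in limma when tested among themselves, which is why they are given here. Probe ILMN_2046896 read 9.91 and 9.91 with siC and 7.11 and 6.94 with siERRα in resistant cells, a log2 fold change of -2.89 (SE 0.31, limma adjusted p = 0.00194), and had -1.30 in parental cells. Probe ILMN_1734348 read 4.63 and 4.67 with siC and 5.89 and 6.11 with siERRα, and was below detection on both siC arrays. It was at least 1.28-fold higher with siERRα. The measured log2 fold change was 1.35 (SE 0.19, limma adjusted p = 0.0154). That p-value rests on siC readings below detection and does not apply to the bound. Which transcripts these probes read was not looked up here.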

How the results depend on the processing

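The fall of ESRRA in resistant cells passed the threshold under 15 of 15 alternatives, with log2 fold changes from -2.74 to -1.31, whereas COPRS passed in 8 (-1.11 to -0.76), SIVA1 in 7 (-1.23 to -0.99), TMEM64 in 4 (-1.47 to -0.42) and RTN4R in 4 (0.31 to 1.05). DSCC1, not called in the reported fit, passed with a normexp offset of 50, without background correction, with median scaling and in the authors' normalized table. RPUSD2, also not called, passed without background correction, with median scaling and in the authors' normalized table. The count of called genes, 5 in the reported fit (4 lower, 1 higher), was 1 with all 20 arrays, 1 with only the 8 parental and resistant arrays, 1 with only the 4 resistant arrays and 3 with the mean of all detected probes. It was 11 in the authors' normalized table (10 lower, 1 higher) and 6 with median scaling (6 lower, 0 higher), which moved the median of all genes to -0.09. Leaving out any 1 of the 4 resistant arrays gave 1 to 1. Of the 11 genes called in the authors' table, 3 were called in the reported fit as well, namely ESRRA, COPRS and SIVA1. GOT1 and MT1E, not called in the reported fit, were among the 11, and MT1E was also called without background correction. In the reported fit MT1E had a log2 fold change of 1.27 (SE 0.33, limma adjusted p = 0.324). A t-test, which the methods name for fold changes, was run on the values computed here. It gave 529 genes at an unadjusted p under 0.05 and 0 after Benjamini-Hochberg. The methods also name SAM for differential expression, and that was not run. With the replicate number as a block, 4 genes were called (3 lower, 1 higher, TMEM64 not among them). Same-numbered deviations correlated over 0.1 in 17 of 36 pairs of groups, at 0.15 to 0.31 among the starved, HRG-treated and EGF-treated siC groups, and at 0.03 between the 2 resistant groups. As not every pair exceeded 0.1, the numbers were not taken to pair the samples. Array names in the labels end in a number for every replicate 1 and in letters for every replicate 2, and what this marks was not stated. In parental cells the count of 0 became 1 with no background correction and 2 with median scaling, and the average over parental, starved and HRG-treated cells had 0 called genes with all 20 arrays, an alternative chosen after seeing the data. The cause of these changes was not tested. Of the named genes, NFATC2IP turned to 0.13 with the mean of its probes, and 4 spanned 0 when an array was left out: HK1 from -0.48 to 0.0099, ITGB4 from -0.0177 to 0.66, ITGB5 from -0.0205 to 0.41 and ISG15 from -0.81 to 0.14. The medians of the complexes II to IV, TCA cycle, ATP synthase and complex I lists kept their sign under 14 of 14 alternatives. Slide and scan as a block was not run, since the files used here name neither. Arrays numbering 2 a group limit the precision, as does signal near background for the genes given as bounds.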
